A study of Mus musculus with 2 samples.

Results

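Among 13563 single-nucleus barcodes sorted for thick ascending limb (TAL) cells of mouse kidney, 95 carried at least 5 raw counts of Slc12a3, the gene of the thiazide-sensitive sodium chloride cotransporter (NCC), with at most 4 counts of the proximal tubule receptor genes Lrp2 and Cubn together. These are the distal convoluted tubule (DCT) barcodes. They were chosen on those counts, so Slc12a3, Lrp2, Cubn and Slc12a1 describe the members and are not findings about them. By Slc12a1, the gene of the TAL cotransporter NKCC2, 47 of the 95 held at most 2 counts and are called DCT-only, 45 held at least 10 counts and are called DCT+TAL because each may hold the RNA of a TAL nucleus as well, and 3 lay between.

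Nuclei came from NKCC2-INTACT mice, in which a tamoxifen-inducible Cre recombinase driven from the Slc12a1 gene switches on a nuclear envelope protein fused to green fluorescent protein, and fluorescent nuclei were sorted. The labels give B6 males of age 12 with no unit and genotype WT, although the line carries both the Slc12a1-CreERT2 and the CAG-Sun1/sfGFP alleles, and all animals received tamoxifen. There were 2 groups with 1 PIPseq library each, a superficial cortical strip and a medullary portion that was all the tissue left after that strip and therefore holds deep cortex too. Neither group has a replicate, so no test between them or within them was possible. Region and library are 1 split and cannot be told apart, and every interval below is a 95% interval for counting error only. The number of mice behind each library was not given in the sources used here, and neither the fluorescent protein nor Cre is among the counted genes.

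The DCT is the short segment that follows the macula densa at the end of the TAL. Its cells take up sodium and chloride through NCC, which WNK kinases activate through the kinases SPAK and OSR1 and which the KLHL3 and cullin 3 ubiquitin ligase restrains by degrading WNKs. The early segment, DCT1, is marked by parvalbumin and by the magnesium channel TRPM6, and the late segment, DCT2, adds the calcium carriers calbindin and NCX1 and the aldosterone-sensitive sodium channel ENaC before it merges into the connecting tubule.

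The cortical library held 80 of the members among 5442 barcodes (1.47%, exact binomial interval 1.17 to 1.83) and the medullary library 15 among 8121 (0.185%, 0.103 to 0.304). The 80 cortical members were 38 DCT-only, 3 intermediate and 39 DCT+TAL barcodes, and the 15 medullary ones were 9 DCT-only and 6 DCT+TAL barcodes. No barcode occurred in both libraries (0 shared). The libraries were close in depth, with a median of 2427 counts a barcode in cortex (16457300 in all) and 2430 in medulla (20947211 in all). Cortical DCT-only barcodes had a median of 2360.5 counts (1284 to 6045; 97682 in all), near the 2308 of the 4594 cortical TAL barcodes, which are those with at least 10 Slc12a1 counts, at most 1 Slc12a3 count and at most 4 of Lrp2 and Cubn. Cortical DCT+TAL barcodes had a median of 4366 counts (1273 to 6503). In medulla the medians were 2696 (DCT-only, 22844 counts in all), 5103 (DCT+TAL) and 2413 (7827 TAL barcodes).

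The Slc12a3 minimum fell in a gap. In cortex 5242 barcodes had no Slc12a3 count, 3 had 3 or 4, none had 5 or 6, and 2 had 7 to 9, both members. In medulla 1 barcode had 3 or 4 counts, none had 5 or 6 and 1 had 7 to 9. Among cortical barcodes past the Slc12a3 minimum, 12 were left out for Lrp2 and Cubn, 3 of them at 5 to 9 counts and 6 at 20 to 129, while 2 members held 3 or 4. The split by Slc12a1 was as open: the cortical DCT-only barcodes held 0 counts (32 barcodes) or 1 count (6), the intermediate barcodes 3, 5 and 7, and the lowest DCT+TAL barcode 11.

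**Figure D1:**
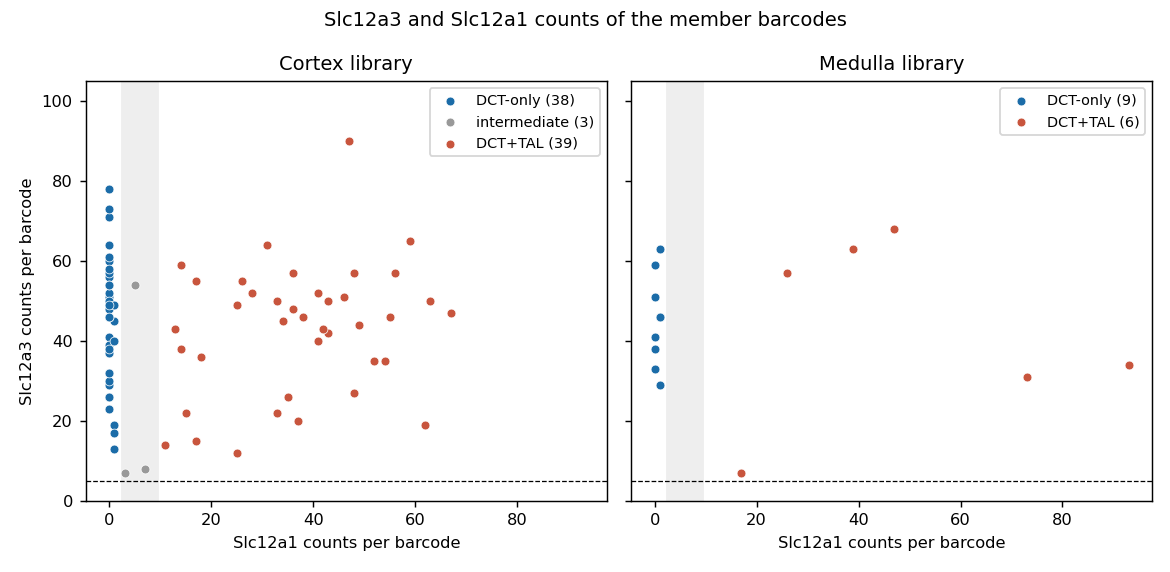
Raw Slc12a1 counts (x axis) against raw Slc12a3 counts (y axis) for each of the 95 member barcodes, cortex and medulla in separate panels; the grey band marks 3 to 9 Slc12a1 counts and the dashed line the Slc12a3 minimum of 5. The DCT-only barcodes stand at 0 or 1 Slc12a1 count and the DCT+TAL barcodes at 11 to 93, while both classes cover a like range of Slc12a3.

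Slc12a3 (chr8:95055829-95094170, plus strand, GRCm39) was read at 13, 47 and 78 counts as the lowest, median and highest cortical DCT-only barcode, and at 29, 46 and 63 in medulla. Its summed level was 17393 CPM (counts scaled to a class total of 1000000) in cortex and 17773 in medulla. Slc12a1 (chr2:124994425-125071922, plus strand) stood at 61.4 CPM in cortical DCT-only barcodes, beside 85.1 in the 46 cortical proximal tubule (PT) barcodes (at least 10 counts of Lrp2 and Cubn, at most 2 of Slc12a1 and at most 1 of Slc12a3), which should lack it, and 13338 in the free RNA of cortical barcodes of at most 100 counts. Both classes were chosen with at most 2 Slc12a1 counts a barcode. In medulla the values were 175 CPM (47.7 to 448), 118 and 21372.

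Of the markers that accompany the name, the DCT-only barcodes held much Trpm6, Slc8a1 and Calb1 and little of the ENaC subunits. Trpm6 (chr19:18727089-18869875, plus strand), the apical magnesium channel of the DCT, was at 0, 5 and 15 counts as the lowest, median and highest cortical barcode and was seen in 35 of 38, and in medulla at 2, 10 and 15, in 9 of 9. Slc8a1 (chr17:81680534-82045891, minus strand), the basolateral sodium calcium exchanger NCX1, ran from 0 over 12.5 to 227 counts in cortex (33 of 38) and from 0 over 8 to 225 in medulla (8 of 9). A single medullary barcode held 63.6% of that class's Slc8a1 counts. Calb1 (chr4:15881155-15908085, plus strand), the calcium buffer calbindin, ran from 0 over 4.5 to 27 in cortex (30 of 38) and from 0 over 2 to 15 in medulla (6 of 9). Scnn1b and Scnn1g, the beta and gamma subunits of ENaC, gave 16 counts in 6 and 2 counts in 2 of the 38 cortical barcodes, and 3 and 0 counts in medulla. Pvalb, the early-segment calcium buffer parvalbumin, gave 9 counts in 7 cortical barcodes and 4 in 2 medullary ones. With each barcode thinned to 1000 counts, Trpm6 was still seen in 76.3% of cortical DCT-only and 0.980% of cortical TAL barcodes, Slc8a1 in 81.6% and 4.29%, and Calb1 in 65.8% and 0.871%, and Scnn1b in 7.89% and 0.762%.

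**Figure D2:**
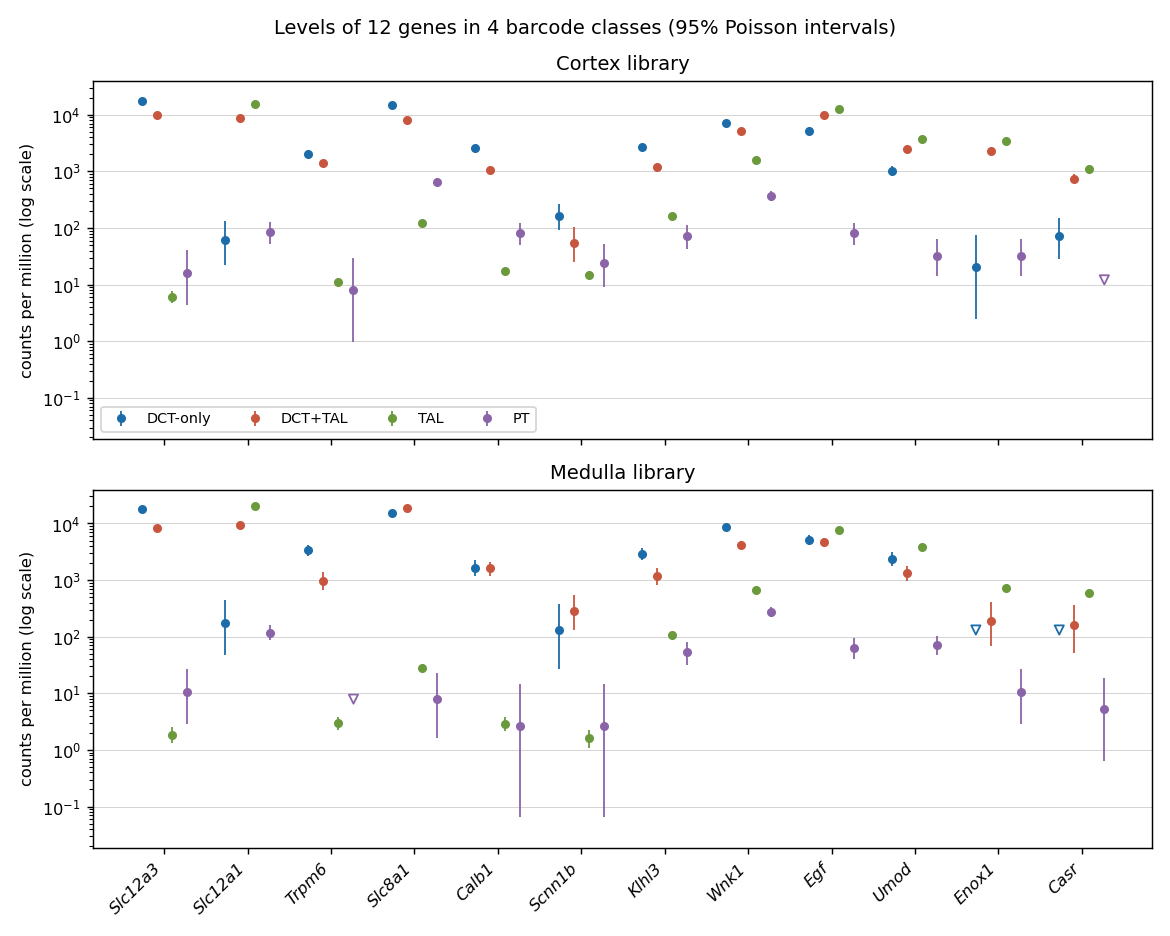
Levels (CPM, log axis) of 12 genes in DCT-only, DCT+TAL, TAL and PT barcodes of each library; bars are exact Poisson intervals for counting error, and open triangles mark genes with 0 counts, drawn at the level of 3 counts. In DCT-only barcodes Trpm6 stands at 2058 CPM (cortex) and 3371 CPM (medulla), while Enox1 has 2 counts in cortex and 0 in medulla.

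The comparison with TAL barcodes asks how the DCT-only barcodes differ from the cells the sort was made for. A ratio is the CPM in DCT-only barcodes over that in TAL barcodes of the same library, and a gene is called higher at a ratio of 2 or more and lower at 0.5 or less. Of 3945 genes with at least 10 counts in cortical DCT-only barcodes, observed and expected from the TAL level together, 370 were higher (9.38%) and 390 lower (9.89%), with a median ratio of 1.01. In medulla, with 9 barcodes, 159 of 906 were higher (17.5%) and 116 lower (12.8%), with a median of 1.06. A gene that is scarce in TAL barcodes can pass that minimum only where it is high in DCT-only barcodes, so the shares are a background and not a result. Over genes with 20 counts in both classes the median ratio was 1.13 in cortex and 1.21 in medulla, and with ratios divided by it the calls were 257 higher and 517 lower in cortex, and 100 higher and 163 lower in medulla.

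Among the regulators of NCC, Wnk1 and Klhl3 were higher in DCT-only than in TAL barcodes of both libraries, while Wnk4 and the SPAK gene Stk39 were called in neither. Klhl3 (chr13:58148042-58261469, minus strand), the substrate adaptor that delivers WNK kinases to degradation, was at 0, 6 and 20 counts as the lowest, median and highest cortical barcode and at 1, 6 and 16 in medulla. Its level was 2672 CPM in cortex against 162 in TAL barcodes, a ratio of 16.5 (14.5 to 18.8), and 2889 CPM in medulla with a ratio of 26.7 (20.6 to 34.1). Wnk1 (chr6:119900930-120015660, minus strand), the kinase whose short kidney form is abundant in the DCT, was seen in every DCT-only barcode, at 3, 18 and 34 counts in cortex and 16, 23 and 28 in medulla. Its ratio was 4.47 (4.13 to 4.82) in cortex, at 7105 CPM, and 12.9 (11.1 to 14.8) in medulla, at 8536 CPM. Gene-level counts do not separate the short from the long form.

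Wnk4, the other WNK kinase of the DCT, had a ratio of 1.94 (1.57 to 2.37) in cortex and 1.68 (1.01 to 2.62) in medulla, short of the 2-fold call. Stk39, which encodes SPAK, stood at 1.10 (0.894 to 1.33) and 0.865 (0.554 to 1.29), and Cul3, the cullin partner of KLHL3, at 1.33 (0.774 to 2.14) in cortex and 1.59 (0.517 to 3.73) in medulla, the latter from 5 counts, short of the minimum. Kcnj10 encodes the basolateral potassium channel subunit Kir4.1, and its ratio was 2.69 (1.64 to 4.18) in cortex, from 20 counts, and 4.31 (1.73 to 8.91) in medulla, from 7, short of the count minimum. Its partner Kcnj16 (Kir5.1) was at 0.662 (0.519 to 0.832) and 0.906 (0.553 to 1.40). Nedd4l, a ubiquitin ligase that acts on ENaC and NCC, was lower in cortex at 0.459 (0.341 to 0.604) and stood at 0.549 (0.300 to 0.922) in medulla. Of 18 genes in the regulator list, 15 passed the minimum in cortex, where 3 were higher and 2 lower with a median ratio of 0.981, and 10 in medulla, where 3 were higher and none lower with a median of 1.12; the third medullary gene was Cab39, a SPAK cofactor, at 2.38 (1.02 to 4.69), or 1.97 once divided by the median ratio, by which Nedd4l came to 0.455 and was then lower there. Those medians sat beside 1.01 and 1.06 over all genes, and the calls beside shares of 9.38% higher and 9.89% lower in cortex. In medulla the shares over all genes were 17.5% and 12.8%.

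**Figure D3:**
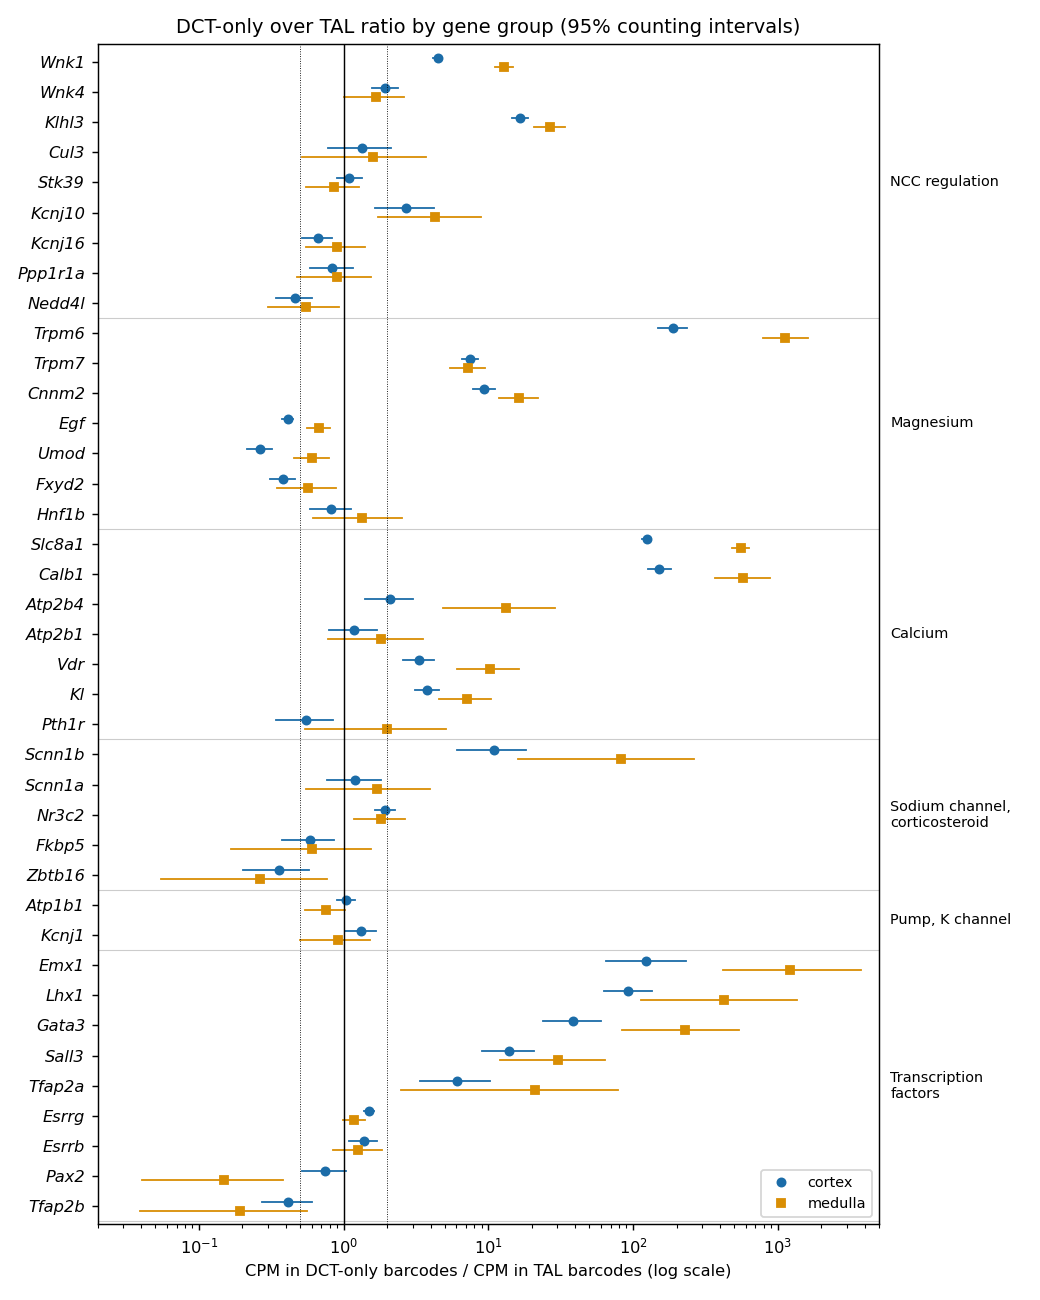
Ratio of DCT-only to TAL level (log axis) for genes grouped by role, cortex as circles and medulla as squares with counting intervals; dotted lines mark 0.5 and 2. Trpm6, Slc8a1 and Calb1 stand above 100 in both libraries, Klhl3 and Cnnm2 between 9 and 27, and Stk39 close to 1.

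Of the magnesium genes, Trpm6, Trpm7 and Cnnm2 were higher than in TAL barcodes, while Egf, Umod, Fxyd2, Cldn16 and Cldn19 were lower in cortex. Trpm6 had a ratio of 188 (150 to 236) in cortex and 1127 (791 to 1613) in medulla, where TAL barcodes held 11 and 2.99 CPM. Trpm7, the ubiquitous relative that forms channels with TRPM6, was higher at 7.53 (6.63 to 8.53) and 7.22 (5.44 to 9.41). Cnnm2, a basolateral protein needed for magnesium transport in the DCT, was at 0, 3 and 12 counts as the lowest, median and highest cortical barcode and at 1, 4 and 12 in medulla. This put Cnnm2 at a ratio of 9.38 (7.84 to 11.2) in cortex, and of 16.4 (11.9 to 21.9) in the medullary barcodes. The claudins Cldn16 and Cldn19, which form the paracellular magnesium and calcium pathway of the TAL, had 0 counts in the 47 DCT-only barcodes. Against cortical TAL barcodes, with DCT-only set at 3 counts over the class, Cldn16 was 4.83-fold lower and Cldn19 4.73-fold lower. In medulla 0 counts set no limit below the TAL level for either gene.

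Egf and Umod, both made by TAL and DCT cells, were present but below TAL levels in cortex. Egf (chr3:129470410-129549093, minus strand), the growth factor that stimulates TRPM6, was at 0, 9 and 53 counts in cortex and 0, 9 and 31 in medulla, with ratios of 0.412 (0.377 to 0.449) and 0.677 (0.560 to 0.812). Umod (chr7:119061934-119078505, minus strand), the gene of uromodulin, was at 0, 1 and 12 counts in cortex and 0, 5 and 18 in medulla, with ratios of 0.264 (0.214 to 0.321) and 0.605 (0.455 to 0.790). Both are abundant in free RNA, at 11310 and 4849 CPM in cortex. Egf was seen in 89.5% of cortical DCT-only barcodes at 5180 CPM against 39.1% of PT barcodes at 81.0 CPM, and Umod in 52.6% at 1003 CPM against 17.4% at 32.4 CPM, with a median depth of 3953 counts in the PT barcodes. The part of free RNA in the DCT-only counts of both genes was not tested. In medulla Egf stood at 5122 CPM against 63.2 in PT barcodes, and Umod at 2364 against 71.0. Fxyd2, the gamma subunit of the sodium pump, was lower in cortex at 0.380 (0.310 to 0.462) and stood at 0.570 (0.348 to 0.881) in medulla. Of 15 magnesium genes, 10 passed the minimum in cortex, 3 higher and 5 lower with a median ratio of 0.617, and 7 in medulla, 3 higher and none lower with a median of 1.34. Over all genes tested, 9.38% were higher and 9.89% lower in cortex, and 17.5% and 12.8% in medulla. Once divided by the median ratio, Fxyd2 was at 0.472 in medulla and passed the lower limit.

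Calcium genes of the late segment were also high, and the calcium-sensing receptor of the TAL was close to absent. Slc8a1 had a ratio of 124 (115 to 134) in cortex and 556 (485 to 637) in medulla, and Calb1 one of 152 (126 to 184) and 576 (371 to 885). Vdr, the vitamin D receptor, was higher at 3.31 (2.56 to 4.22) and 10.2 (6.06 to 16.3). Kl, which encodes Klotho, the co-receptor for the phosphate hormone FGF23, was higher at 3.77 (3.11 to 4.54) and 7.09 (4.58 to 10.5). The plasma membrane calcium pump gene Atp2b4 was at 2.11 (1.42 to 3.02) in cortex, or 1.87 once divided by the median ratio, and at 13.2 (4.82 to 29.1) in medulla from 6 counts, short of the minimum. Trpv5, the apical calcium channel, gave 3 counts in cortex and 1 in medulla. Casr, the calcium-sensing receptor, was lower at 0.0639 (0.0257 to 0.132) in cortex. It had 0 counts in medulla, and was 4.53-fold lower there when set at 3 counts. Pth1r, the parathyroid hormone receptor, was at 0.553 (0.342 to 0.846) in cortex, or 0.491 once divided by the median ratio, and at 1.98 (0.539 to 5.08) in medulla from 4 counts, short of the minimum. Of 12 calcium genes, 9 passed in cortex, 6 higher and 1 lower with a median ratio of 3.29, and 6 in medulla, 4 higher and 1 lower with a median of 8.67. Over all genes tested, 9.38% were higher and 9.89% lower in cortex, and 17.5% and 12.8% in medulla.

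Genes of corticosteroid response and ENaC showed no common direction. Scnn1b was the only one of 8 tested genes called higher in cortex, at 10.9 (6.09 to 18.2). Scnn1a, the alpha subunit, stood at 1.21 (0.764 to 1.82), and Nr3c2, the mineralocorticoid receptor, at 1.93 (1.64 to 2.26) in cortex and 1.82 (1.19 to 2.67) in medulla. Nr3c1, the glucocorticoid receptor, was lower in cortex at 0.414 (0.189 to 0.787) and gave 1 count in medulla. Zbtb16, a steroid-responsive transcription factor, was lower at 0.356 (0.203 to 0.578), and Klk1, tissue kallikrein, at 0.386 (0.259 to 0.555). Hsd11b2, the enzyme that shields the mineralocorticoid receptor from cortisol and corticosterone, gave 1 count in cortex and 0 in medulla. Over the 12 genes, 1 was higher and 3 lower among 8 tested in cortex with a median ratio of 0.628, and none higher and 1 lower among 3 in medulla with a median of 0.608. Over all genes tested, 9.38% were higher and 9.89% lower in cortex, and 17.5% and 12.8% in medulla.

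In the list of sodium pump and potassium channel genes, Atp1b1, the beta subunit of the pump, stood at 1.04 (0.901 to 1.19) in cortex, or 0.923 once divided by the median ratio, and at 0.755 (0.542 to 1.02) in medulla. Kcnj1, which encodes the apical potassium channel ROMK, was at 1.33 (1.03 to 1.69) and 0.911 (0.498 to 1.53). Kcnma1, the large-conductance potassium channel, was lower in cortex at 0.0642 (0.00777 to 0.232), from 2 counts. It was the only called gene among 4 tested of 5 in cortex, where the median ratio was 1.18, and none of 3 was called in medulla (median 0.911). Over all genes tested, 9.38% were higher and 9.89% lower in cortex, and 17.5% and 12.8% in medulla.

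Members of the transcription factor list were called in both directions. The homeobox gene Emx1 was higher at 123 (65.6 to 232) in cortex and 1213 (417 to 3754) in medulla, from 23 and 10 counts. Lhx1, a LIM homeobox regulator of nephron development, was at 92.3 (62.7 to 135) and 424 (114 to 1363). Gata3, a factor of the distal nephron and collecting duct, was at 38.3 (23.8 to 59.7) and 229 (83.8 to 541), and was seen in 50% of cortical DCT-only barcodes. Sall3 was at 14.0 (9.08 to 20.7) and 30.5 (12.1 to 64.0), and Tfap2a at 6.11 (3.38 to 10.2) in cortex. In medulla Lhx1, Gata3 and Sall3 rested on 5, 7 and 7 counts and fell short of the minimum. Tfap2b, a factor known for distal nephron development, was lower at 0.414 (0.273 to 0.603) and 0.191 (0.0394 to 0.558), the latter from 3 counts. Tfap2b is also on the list of DCT markers. Pax8 was lower in cortex at 0.442 (0.190 to 0.872) and stood in medulla at 0.549 (0.150 to 1.41), from 4 counts, or 0.455 once divided by the median ratio, and Pax2 stood at 0.741 (0.512 to 1.04) in cortex and was lower in medulla at 0.149 (0.0407 to 0.383), from 4 counts. Irx1, Irx2 and Irx3, Iroquois genes of the developing nephron, had 0 counts. Esrrg, an orphan nuclear receptor of oxidative metabolism, stood at 1.5 (1.38 to 1.63) in cortex and 1.18 (0.991 to 1.40) in medulla, or 0.978 there once divided by the median ratio. Of 20 factors, 12 passed in cortex, 5 higher and 3 lower with a median ratio of 1.44, and 7 in medulla, 1 higher and 2 lower with a median of 0.942. Over all genes tested the shares were 9.38% higher and 9.89% lower in cortex, and 17.5% and 12.8% in medulla. With 7 genes tested in medulla, the calls there are not read as a result about the list.

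Beyond the lists, several genes stood with Trpm6 at the head of the cortical ranking of genes with at least 20 counts. Lhx1os, antisense to Lhx1, was at 108 (64.5 to 179), and its reads and those of Lhx1 cannot be told apart, since the use of strand in counting was not given in the sources used here. Fgf13, an intracellular relative of the fibroblast growth factors, was at 53.7 (32.4 to 86.8) in cortex and 192 (99.1 to 346) in medulla, and the kinase gene Cdk14 at 45 (33.5 to 59.8) and 75.5 (45.2 to 119). Ptgfr, the prostaglandin F receptor, was at 28.1 (18.9 to 40.6) and 22.3 (10.6 to 41.5). Phactr1, a regulator of protein phosphatase 1 and actin, was at 3778 CPM in cortex, a ratio of 21.2 (19 to 23.8), and was seen in 86.8% of barcodes. Tsc22d1, a leucine zipper protein gene, was at 17.9 (15.4 to 20.8) and in 97.4% of barcodes, and Hmgcll1 at 20.5 (14.1 to 29.2). Slc2a9, a urate transporter, was at 23.8 (14.1 to 38.2), but 12 of its 21 counts came from 1 barcode. The remaining gene of the leading 15, 4933406I18Rik, was at 22.2 (14.8 to 32.3).

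At the other end stood genes that were abundant in TAL barcodes. Enox1 gave 2 counts in the 38 cortical DCT-only barcodes against 3383 CPM in TAL barcodes, a ratio of 0.00605 (0.000733 to 0.0219), and 0 in medulla. The sulfotransferase gene Chst9 had 0 counts in both libraries. With DCT-only set at 3 counts it was 18.6-fold lower in cortex and 6.03-fold lower in medulla. On the same footing Cdh6, a cadherin of the developing nephron with 0 counts, was 15.7-fold lower in cortex. Plcxd3 and Ralyl, also at 0 counts there, were 9.45-fold and 8.52-fold lower. The teneurin gene Tenm2 was at 0.0133 (0.00275 to 0.0389) in cortex from 3 counts. It had 0 counts in medulla, and was 13.1-fold lower there when set at 3 counts. Thsd4, Car15, Cacna1d and Ephb2 gave 1 to 3 cortical counts each, with ratios of 0.0130 (0.00268 to 0.0380), 0.0140 (0.000354 to 0.0780), 0.0192 (0.000486 to 0.107) and 0.0215 (0.000545 to 0.120). Of 8 TAL markers outside the rule, 7 were lower and none higher in cortex, the exception being Kcnj1, and 3 of 5 tested were lower in medulla. Of 12 DCT markers outside the rule, 10 were tested in cortex, where 7 were higher and 2 lower, namely Egf and Tfap2b. In medulla 8 were tested, 5 higher and 1 lower, namely Tfap2b. Over all genes tested, 9.38% were higher and 9.89% lower in cortex, and 17.5% and 12.8% in medulla.

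TAL cells are not uniform, so the DCT-only level was also set against TAL barcodes split by their claudins and by Nos1, the macula densa nitric oxide synthase. For Kcnj10, Wnk4, Nr3c2, Atp2b4, Pth1r, Egf and Umod the result depended on that choice. The Kcnj10 ratio was 1.49 (0.901 to 2.34) against the 910 cortical TAL barcodes with Cldn16 and no Cldn10, but 11.1 (6.00 to 20.1) against the 631 with Cldn10 and no Cldn16, and in medulla 2.18 (0.867 to 4.54) and 6.52 (2.60 to 13.6). Wnk1 was higher against each: 2.99 (2.76 to 3.23) for Cldn16 barcodes, 8.72 (7.95 to 9.56) for Cldn10 barcodes and 5.28 (4.83 to 5.77) for the 619 cortical barcodes with 2 or more Nos1 counts. Klhl3 came nearest to DCT-only in the Nos1 barcodes, with ratios of 7.33 (6.28 to 8.53) there, 23.8 (20 to 28.3) against Cldn16 barcodes and 18.4 (15.4 to 21.9) against Cldn10 barcodes. Trpm6 behaved alike, at 54.1 (39.6 to 75.1) against Nos1 barcodes and 359 (209 to 669) against Cldn16 barcodes. Wnk4, not called against all TAL barcodes, stood at 2.11 (1.69 to 2.59) against cortical Cldn16 barcodes, 1.52 (1.22 to 1.87) against Cldn10 barcodes and 2.99 (2.37 to 3.73) against Nos1 barcodes. Atp2b4 was at 2.98 (1.97 to 4.36) against cortical Cldn16 barcodes but at 0.983 (0.655 to 1.42) against Nos1 barcodes, and at 0.754 (0.266 to 1.74) against the medullary Nos1 barcodes. Pth1r ran from 0.391 (0.241 to 0.600) against cortical Cldn16 barcodes to 4.47 (1.21 to 11.6), from 4 counts, against medullary Cldn10 barcodes. Nr3c2 stood just under 2 against cortical Cldn16 barcodes (interval 1.69 to 2.35), 2.11 (1.78 to 2.48) against Cldn10 barcodes and 1.54 (1.30 to 1.82) against Nos1 barcodes. Egf and Umod changed side: in cortex they were lower than in Cldn16 barcodes, at 0.337 (0.308 to 0.368) and 0.245 (0.199 to 0.299), and stood above Nos1 barcodes at 2.25 (2.05 to 2.48) and 1.42 (1.14 to 1.75). In medulla they stood at 0.383 (0.316 to 0.459) and 0.517 (0.388 to 0.676) against Cldn16 barcodes, and both were higher than in the 75 Nos1 barcodes, at 8.34 (6.35 to 11) and 4.30 (3.02 to 6.08). These splits were chosen after the data had been seen, and most TAL barcodes fell in neither claudin group.

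Between the libraries, the 9 medullary and 38 cortical DCT-only barcodes stood within 2-fold of each other for most genes, and of 1251 genes with at least 20 counts in both together 84 stood at 2 or more (6.71%) and 166 at 0.5 or less (13.3%), with a median medulla over cortex ratio of 0.996. Slc12a3 was at 1.02 (0.915 to 1.14), Slc8a1 at 1.03, Klhl3 at 1.08 and Egf at 0.989. The Slc8a1 value rested on 1 medullary barcode, which held 225 of the 354 medullary counts. Median Slc8a1 was 8 counts a barcode in medulla and 12.5 in cortex. Trpm6 stood at 1.64 (1.24 to 2.14), with 8 of 9 medullary barcodes at 5 counts or more against 21 of 38 cortical ones, while the 2 sets of barcodes overlapped (2 to 15 and 0 to 15 counts). Calb1 was at 0.637 (0.441 to 0.899) and Nr3c2 at 0.695 (0.440 to 1.06). Umod was called higher in medulla, at 2.36 (1.66 to 3.32), and it was also more abundant in medullary free RNA (7585 against 4849 CPM), whose part in the difference was not tested. Among the highest ratios of all genes were those of Micu2, a subunit of the mitochondrial calcium uniporter, at 4.28 (1.60 to 11.4) from 10 counts in each library, the kinase gene Cdk13 at 3.47 (1.54 to 7.70), Cnot4 of the CCR4-NOT complex at 3.42 (1.46 to 7.83) and Sh2d4a at 3.29 (1.29 to 8.12). At the low end 14 genes, with 20 to 40 cortical counts each, had 0 medullary counts. With 38 cortical and 9 medullary barcodes, a gene could pass the minimum through cortex alone. A ratio of 0 is included at 0.5 or less, although some intervals reached past 0.5, such as that of Slc5a12 (26 cortical counts, up to 0.652). The 5 genes with the most cortical counts are named here. The mitochondrially encoded oxidase subunit gene mt-Co2 had 40 counts in 13 of 38 cortical barcodes, 11 of them in 1 barcode. With medulla set at 3 counts it was 3.12-fold lower there, and the interval of its ratio reached 0.413. In TAL barcodes mt-Co2 was also lower in medulla, at 60.9 CPM against 134 in cortex. The part of that library-wide difference was not tested. Fgfr2, a fibroblast growth factor receptor, had 30 counts in 21 cortical barcodes. On the same footing it was 2.34-fold lower, but its interval reached 0.559, short of the 2-fold limit. Slc34a1, Fut9 and Nox4 owed 29 of 38, 28 of 31 and 29 of 29 cortical counts to 1 barcode described below.

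DCT-only barcodes differed among themselves in late-segment genes. Counts of Slc8a1, Calb1, Trpv5, Scnn1b, Scnn1g and S100g were summed in each, with 0 or 1 called the early range and 5 or more the late range; these are ranges of a score and not cell types. In cortex 5 of 38 barcodes lay in the early range, 6 between and 27 in the late range, and in medulla 2, 1 and 6 of 9. The late-range sums had a median of 29 and a highest value of 262 in cortex, and 27 and 242 in medulla. The ranges differed in depth, with a median of 2004 counts in the 7 early barcodes of both libraries and 2564 in the 33 late ones, and the part of depth in what follows was not tested. Median Slc12a3 was 41 counts in the early and 46 in the late range.

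**Figure D4:**
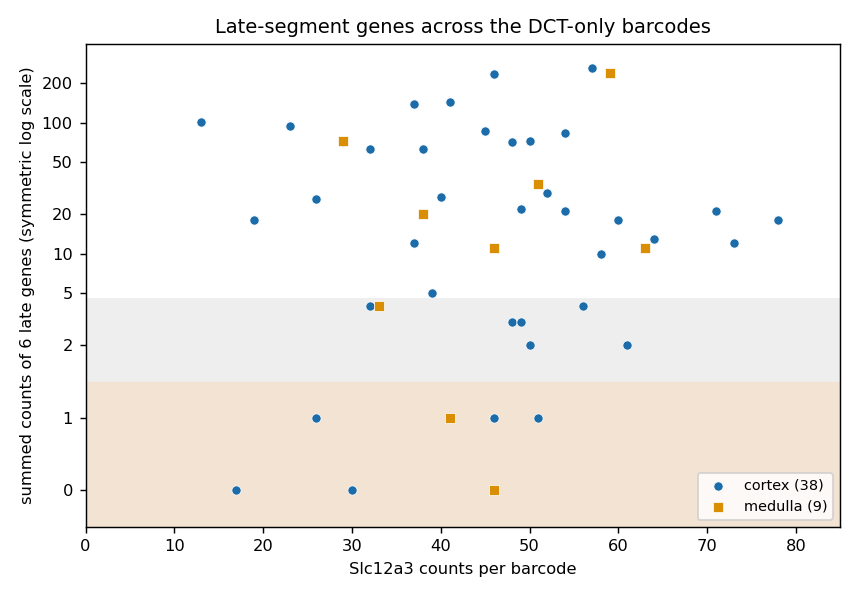
Summed counts of the 6 late-segment genes (y axis) against Slc12a3 counts (x axis) for the 47 DCT-only barcodes; bands mark the early range (0 or 1) and the counts between (2 to 4). The early-range barcodes lie at 17 to 51 Slc12a3 counts and the 6 with sums above 100 at 13 to 59, while the 7 barcodes with 60 or more Slc12a3 counts have sums of 2 to 21.

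Over both libraries together, 181 of 1008 genes with at least 20 counts in both ranges together and outside the 6 stood at 2 or more in the late over the early range (18%) and 75 at 0.5 or less (7.44%), with a median ratio of 1.05. With 33 late and 7 early barcodes, a gene could pass that minimum through the late range alone. Genes with 0 early counts are included at 2 or more, whatever their interval. The shares are therefore a background and not a result. Arl15, a small GTPase gene linked to TRPM6 and CNNM proteins, led them with 126 counts in 17 of 33 late barcodes and 0 in 7 early ones. With the early range set at 3 counts it was 6.95-fold higher, and the interval of its ratio began at 5.57. Atrnl1 followed with 48 counts in 23 late barcodes and 0 in the early ones. On the same footing it was 2.65-fold higher, with an interval from 2.07. Spata13, Cnn3, Senp6, Inpp5a and Cab39l also had 0 early counts. Set at 3 early counts they were 1.49-fold to 1.71-fold higher, with intervals from 1.13 to 1.31 at the low end. The early barcodes were too shallow to place them past 2-fold. Slc2a9 owed 12 of its 26 late counts to 1 barcode, and Nox4 and Fut9 owed theirs to the barcode named above. Kl was at 3.42 (1.53 to 9.49), Vdr at 3.22 (1.21 to 12.1) and Cnnm2 at 1.998 (1.11 to 3.96), just under 2. Other list genes at 2 or more included Gata3 at 4.96 (0.825 to 202) and Pth1r at 3.64 (0.588 to 150), each with 1 early count. List genes at 0.5 or less included Scnn1a at 0.469 (0.176 to 1.45), Lhx1 at 0.480 (0.227 to 1.10) and Kap at 0.449 (0.181 to 1.26). Slc12a3 stood at 0.977, Wnk1 at 1.03, Klhl3 at 1.22, Trpm6 at 1.48 (0.982 to 2.31) and Egf at 0.706 (0.562 to 0.896). The lowest ratios were those of mt-Co3, a mitochondrially encoded oxidase subunit, at 0.177 (0.0797 to 0.396), and Acyp2, an acylphosphatase, at 0.234 (0.105 to 0.538), both carried by few counts. The other 8 of the lowest 10 (1110019D14Rik, Zfp280d, Hpcal1, Fubp1, Cabcoco1, Dcbld1, Tcf7l2 and Ppp2r2b) lay between 0.262 and 0.307. Tcf7l2, a transcription factor of Wnt signalling, had 12 counts in the 7 early and 22 in the 33 late barcodes, and Ppp2r2b, a protein phosphatase 2A subunit, 21 and 39, of which 11 of the 21 came from 1 barcode.

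By class means, the 45 DCT+TAL barcodes held about as much RNA as a DCT-only and a TAL barcode together. Single barcodes ranged from 1273 to 6503 counts in cortex and from 1096 to 8070 in medulla. The shallowest lay below the median of either single class. The mean cortical DCT+TAL barcode had 4283 counts, against a sum of 5073 for the means of the other classes (a ratio of 0.844), and the mean medullary one 5258 against 5016 (1.05). Gene by gene in cortex, Egf was at 42.2 counts a barcode against a sum of 44.8, Umod at 10.7 against 12.1, Slc8a1 at 34.8 against 39.1, Wnk1 at 22.0 against 22.2, Trpm6 at 6.08 against 5.32 and Casr at 3.18 against 2.99. The Slc8a1 mean rested on few barcodes: its median was 8 counts in cortical DCT+TAL and 12.5 in DCT-only barcodes, and its highest values were 304 and 227. Klhl3 at 5.05 against 7.27, Calb1 at 4.54 against 6.75 and Enox1 at 10.0 against 8.52 lay farther from the sum. Slc12a3 (43.0 against 44.7) and Slc12a1 (37.2 against 39.6) were used to choose the classes. Over 2000 cortical genes the median ratio to the sum was 0.859 and 84.4% lay within 1.5-fold of it, and over 186 medullary genes the median was 1.11 and 78.0%.

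In medulla Wnk1 was at 22.2 counts against a sum of 23.3 and Slc12a3 at 43.3 against 45.1, while Slc8a1 was at 98.7 against 39.4, with 296 and 227 of its 592 counts in 2 of the 6 barcodes. Medullary Umod was at 7.0 against 15.7. Scrublet, a doublet caller, marked 4 of the 39 cortical DCT+TAL barcodes, none of the 6 medullary ones and none of the 47 DCT-only barcodes. At least 1 count of Cldn16 was found in 14 of the 39 cortical DCT+TAL barcodes (35.9%, 21.2 to 52.8) and in 26.2% of TAL barcodes, of Cldn10 in 6 (15.4%, 5.86 to 30.5) and 20.6%, and of Nos1 in 6 (15.4%, 5.86 to 30.5) and 18.1%, although the DCT+TAL barcodes were deeper. Whether such a barcode held a pair of nuclei, or 1 nucleus with both cotransporters, was not tested.

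In the authors' deposited clustering the cortical members fell almost wholly into 1 group. Cortical cluster 12, of 81 barcodes, held 37 of the 38 DCT-only and 36 of the 39 DCT+TAL barcodes, 1 intermediate barcode and 7 non-members. Those 7 had 0 to 4 Slc12a3 counts and 16 to 112 Slc8a1 counts. In medulla cluster 9 held all 9 DCT-only and 4 of 6 DCT+TAL barcodes among 192 others.

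Markers of intercalated, endothelial, stromal, podocyte and immune cells were at or near 0 in DCT-only barcodes, while the proximal tubule list held 122 counts in cortex (1249 CPM, against 719 in TAL barcodes) and 7 in medulla, and the principal cell list 50 and 12. The water channel genes Aqp2, Aqp3 and Aqp4 and the vasopressin receptor gene Avpr2 of collecting duct principal cells had 0 counts in both libraries, as had Fxyd4, so that Gata3 (27 counts) and Scnn1a (23) carried that list of 7 genes in cortex. The 8 intercalated cell markers summed to 2 counts in cortex and 0 in medulla, the 8 endothelial ones to 3 and 1, the 8 stromal ones to 2 and 0, the 5 podocyte ones to 1 and 0, and the 6 immune ones to 0 in both. The 4 proliferation genes gave 4 counts and 1, of which Top2a gave 3 and 1. The 6 macula densa markers gave 9 counts in cortex, 5 of them from Robo2, and 0 in medulla.

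Counts of 8 of the proximal tubule genes were concentrated in single barcodes, while those of Kap were more spread. Of 76 cortical DCT-only counts of the phosphate, glucose, lactate and organic anion carrier genes Slc34a1, Slc5a2, Slc5a12, Slc22a6, Slc22a8, Slc7a13 and Slc13a3 and of Miox, 59 came from 1 barcode of 6045 counts and 49 Slc12a3 counts, and the next highest barcode held 4. That barcode carried 25 of 26 Slc5a12 counts and 29 of 38 Slc34a1 counts, as well as the Nox4 and Fut9 counts above. With it the cortical ratios of Slc34a1 and Slc5a12 to TAL barcodes were 2.09 and 3.49, and without it 0.528 (0.241 to 1.00) and 0.143 (0.00361 to 0.798), on the other side of 1. With TAL barcodes of 10 or more such counts left out as well, they were 1.40 and 0.771. The DCT+TAL class had 1 like barcode, with 37 of 60 such counts, and 1 of the 3 intermediate barcodes held 10 of 11. Kap, an androgen-regulated PT gene and the most counted of that list, gave 46 counts in cortical and 6 in medullary DCT-only barcodes, with 25 of 38 cortical barcodes at 0, a highest value of 14 and a ratio to TAL of 1.42 (1.04 to 1.90), or 1.51 without the PT-rich barcode, beside 1566 and 1353 CPM in free RNA.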

How the data were processed

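Nuclei of each region were processed as 1 PIPseq 3-prime library, and the authors deposited raw and filtered matrices of molecule counts per gene and barcode from PIPseeker, with its clusters; the labels name GRCm39, bcl2fastq and Seurat 4.4.0. The doublet, free RNA and normalization steps of the study are not in these matrices, and the methods name a dated GRCm39 reference with no gene annotation release. Raw counts of the filtered matrices (32227 genes) were summed per class and divided by the class total (CPM). Intervals are exact Poisson for levels, conditional binomial for ratios and Clopper-Pearson for shares, at 95%; they cover counting error only, and counts of 1 barcode are not independent. A count of 0 was set at 3 counts over the class, with the other class at its measured level. The resulting fold can lie above what the interval of the ratio allows. With 1 library a region, no p-value was computed.

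Genes were compared with TAL barcodes where the counts observed in DCT-only barcodes and those expected there from the TAL level summed to at least 10, and between regions or ranges at 20 counts in both together; Slc12a3, Slc12a1, Lrp2 and Cubn were left out. Named were genes of the marker and pathway lists, the 15 highest and 10 lowest cortical ratios to TAL at 20 counts (observed for the highest, expected for the lowest) on the same side of 1 in medulla, the 5 highest and 5 lowest between regions (ties at 0 by cortical counts, an order set after seeing the values), and the 10 highest and 10 lowest between ranges. Members and lists were chosen with earlier results of these data known; the TAL splits and the alternatives without PT-rich barcodes were chosen after seeing these values. Doublets were kept; Scrublet called 359 cortical barcodes (6.60%), and in medulla, where its threshold called 3 (0.0369%), the top 5% of scores were taken (406). Coordinates are from GENCODE M39 for GRCm39, by Ensembl ID. The code was tested on simulated counts. Software was Python 3.11.15, numpy 2.4.6, scipy 1.17.1, pandas 2.3.3, scanpy 1.11.5, anndata 0.12.19 and matplotlib 3.10.9. Alternatives covered the count limits of the rule, thinning to 1000 counts, Scrublet calls, a quality filter (500 genes, 5% mitochondrial counts), the gene minimum and the scaling. Results for some genes are not reported here.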

Additional observations from a re-analysis of the deposited data

Results flagged for a closer look

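The raw matrices hold further barcodes that meet the same rule but are not in the filtered matrices, and these entered no comparison above. There were 25 in cortex, of which 14 were DCT-only, 4 intermediate and 7 DCT+TAL, with 172 to 1100 counts each (median 526) where the shallowest filtered barcode had 1268. In medulla there were 2, of 103 and 159 counts. The 14 cortical DCT-only barcodes held 21270 CPM of Slc12a3, on which they were chosen, and 2540 CPM of Trpm6 (1452 to 4124), 8730 of Slc8a1 (6577 to 11364), 1429 of Calb1 (653 to 2712), 1746 of Klhl3 (872 to 3124) and 8571 of Wnk1 (6439 to 11184). Enox1 had 0 counts among their 6300. Free RNA in cortex held 335 CPM of Slc12a3, 37.2 of Trpm6, 495 of Slc8a1, 59.8 of Calb1, 152 of Klhl3 and 1297 of Wnk1.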

How the results depend on the processing

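Of 82 settings over 10 counts of barcodes and genes, 68 stayed within 1.5 times the reported value. With barcodes thinned to 1000 counts, the fixed Slc12a1 minimum left 15 cortical and 1 medullary DCT+TAL barcodes, and a Slc12a1 of 0 left 5 medullary DCT-only barcodes. Genes higher in cortex numbered 750 at a minimum of 5 counts and 186 at 20, and genes lower 717 and 177; in medulla they were 444 and 43 higher and 281 and 45 lower. A Slc12a1 of 0 gave 82 higher and 55 lower in medulla, and scaling by the median ratio 100 higher. Of 745 settings over 106 ratios of list genes, 731 stayed within the counting interval, 11 moved beyond it, and 3, of ratios past 2-fold in cortex, changed direction: Slc5a12 at 0.771 without the DCT-only and TAL barcodes rich in PT counts, and Slc5a12 at 0.143 and Slc34a1 at 0.528 without only the DCT-only one, both chosen after seeing the data; in the latter setting the other 65 of 67 cortical list genes stayed within their counting intervals. Ratios near 1 also crossed it under the median scaling, such as Atp1b1 (0.923) and Stk39 (0.973) in cortex and Esrrg (0.978) in medulla. No paired analysis was possible because each region has 1 library. The 9 medullary DCT-only barcodes, with 22844 counts, limit what can be seen there.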
